A study of Mus musculus with 10 samples.

Results

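The 6 genes that mark mouse marginal zone B cells, Cr2, Cd1d1, Cd9, Cd36, Plac8 and Tbc1d9, were followed through 10 RNA sequencing libraries of sorted B lineage cells. The genes were taken by name, transcripts were assigned to them by identifier, and the estimated counts of their transcripts were summed, giving 6 of 30205 genes. All 6 genes entered the test, among 15583 genes with enough counts. The libraries formed 5 groups of 2. Lymphoma libraries came from lymphoma cells of mice that carried both Rosa-NIKdeltaT3flSTOP and Rosa-Notch2ICN, with a Cre active in B cells. Doubly activated libraries shared that genotype and were made from lymph node cells labelled as marginal zone precursors. Notch-labelled libraries carried Rosa-Notch2ICN with the same Cre, and their lymph node cells are labelled as marginal zone B cells. NF-kB-activated libraries carried Rosa-NIKdeltaT3flSTOP with it, and control libraries came from wild-type mice with no Cre stated; both held lymph node cells labelled as precursors. All mice were C57BL/6, of an age and sex that the labels do not state. The Rosa alleles carry a NIK transgene or the intracellular part of Notch2, and the Cre recombinase switches them on in B lineage cells. The Notch-labelled group differed from the other groups of the lymph node in allele and in labelled cell type together, and these cannot be told apart.

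Marginal zone B cells sit at the border of the splenic white pulp, where blood passes them, and answer blood-borne antigens early, largely without T cell help. Notch2 signalling in immature B cells drives their formation, and NF-kB signalling through NIK, the kinase that starts the alternative NF-kB pathway, keeps B cells alive downstream of the BAFF receptor. The cells are known for high CD21 and CD35, complement receptors made from the single mouse gene Cr2, and for high CD1d, the lipid-presenting molecule encoded by Cd1d1. CD9 is a tetraspanin, a membrane organiser, and CD36 is a scavenger receptor for lipids and lipoproteins. PLAC8 is a small cysteine-rich protein inside the cell, and TBC1D9 carries a TBC domain, the part by which related proteins switch off Rab GTPases of vesicle traffic. These last 2 are therefore marker transcripts of marginal zone cells rather than proteins of the cell surface. The labels do not state the sorting markers, and CD21 and CD1d are commonly used to sort such cells.

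Depth was 16380889 to 23102081 estimated counts per library. The libraries of a group correlated at 0.989 to 0.995 across genes, Notch-labelled libraries correlated with those of other groups at 0.865 to 0.892, and lymphoma libraries correlated with the remaining 3 groups at 0.912 to 0.925. The most abundant Ighv segment held 92.3% and 92.1% of Ighv counts in lymphoma libraries (Ighv1-11 in both) and 92.8% and 93.8% in Notch-labelled libraries (Ighv1-55 in both), against at most 7.29% in any library of the other 3 groups. Map3k14, which encodes NIK, averaged 249.5 ± 7.28 CPM in doubly activated cells and 219 ± 2.04 CPM in NF-kB-activated cells, against 116 ± 18.9 CPM in control cells (SD, n = 2 each; CPM are counts scaled to library size and between libraries by the trimmed mean of M values). In lymphoma, which also carried the NIK allele, Map3k14 averaged 153 ± 0.45 CPM. In Notch-labelled cells, which lacked it, Map3k14 averaged 34.9 ± 2.20 CPM. Notch2 averaged 281 ± 4.10 CPM in Notch-labelled cells and 671 ± 27.0 CPM in control cells, so its level ran against the label. In the other groups with Rosa-Notch2ICN it averaged 728 ± 35.7 CPM (doubly activated) and 167 ± 16.8 CPM (lymphoma). Heyl, a Notch target gene, averaged 47.5 ± 4.86 CPM in Notch-labelled cells and 0.406 ± 0.0351 CPM in control cells. It averaged 41.4 ± 3.59 CPM in lymphoma and 24.5 ± 1.59 CPM in doubly activated cells. In NF-kB-activated cells, which lacked the Notch2 allele, Heyl averaged 2.54 ± 0.557 CPM, above control cells too. Notch-labelled libraries also held 665 to 893 CPM of 14 stromal marker genes, led by Col1a2 and Col1a1, against 3.21 to 61.9 CPM in the other 4 groups, and Thy1, a T cell and stromal antigen, at 854 CPM in lymphoma and 253 CPM in Notch-labelled cells, against at most 7.83 CPM in any library of the other 3 groups. Of the 13 T cell markers that include Thy1, 2 were higher and 8 lower in lymphoma than in control cells (median log2 fold change -1.82). In Notch-labelled against control cells 7 were higher and 1 lower (median 1.11). All-gene shares were 27.8% higher and 25.6% lower in the first comparison, and 34.2% and 29.5% in the second. The 13 markers summed to 1007 to 1079 CPM in lymphoma, 404 to 410 CPM in Notch-labelled and 57.7 to 61.9 CPM in control libraries. In bulk libraries such as these, fewer cells of a type and less RNA per cell cannot be told apart. Both lymphoma libraries also shared Igkv17-121, at 90.8% and 91.7% of Igkv counts. Both Notch-labelled libraries shared Igkv12-41, at 92.7% and 94.1%, and no Igkv segment passed 7.14% in any other library. Whether the libraries of a group stem from different animals is not stated, and the p-values below therefore rest on a spread that may be technical. In lymphoma and Notch-labelled cells, whose libraries share the dominant heavy and light chain segments, it may be the spread within 1 clone.

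Lists of B lineage markers differed between the groups too. Of 9 tested plasma cell markers, 8 were higher and 0 lower in lymphoma than in doubly activated cells (median log2 fold change 2.17), with sums of 4871 to 5054 CPM in lymphoma and 1188 to 1356 CPM in doubly activated libraries. Of all genes, 26.1% were higher and 25.2% lower in that comparison. Of 14 B cell identity markers, 2 were higher and 11 lower in Notch-labelled than in control cells (median -1.57), with sums of 8853 to 9523 CPM in Notch-labelled and 16900.0 to 17027 CPM in control libraries. Over all genes 34.2% were higher and 29.5% lower there. In lymphoma 3 of these markers were higher and 10 lower than in control cells (median -0.71), against 27.8% and 25.6% of all genes. Against doubly activated cells lymphoma also had 3 higher and 10 lower (median -0.51). The 14 markers summed to 30971 to 32809 CPM in lymphoma libraries. The part of these lists in the changes of the 6 genes was not tested.

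The 6 genes did not move together. Cr2 was high in the 3 groups labelled as precursors and low in Notch-labelled and lymphoma cells. Cd9 and Cd36 were highest in lymphoma, Plac8 was highest in lymphoma and lowest in NF-kB-activated cells, Tbc1d9 was lowest in control cells, and Cd1d1 varied least. On the TPM scale, which corrects for transcript length, Plac8 was the most abundant of the 6 in lymphoma at 1658 ± 40.1 TPM and in Notch-labelled cells at 735 ± 19.8 TPM. Cr2 led in doubly activated cells at 1421 ± 3.96 TPM, in NF-kB-activated cells at 1242 ± 48.3 TPM and in control cells at 1218 ± 450.0 TPM, and was the least abundant in lymphoma at 11.2 ± 0.107 TPM. Tbc1d9 stood at 8.63 ± 1.61 TPM in control cells, the lowest value of a gene in any group.

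**Figure D1:**
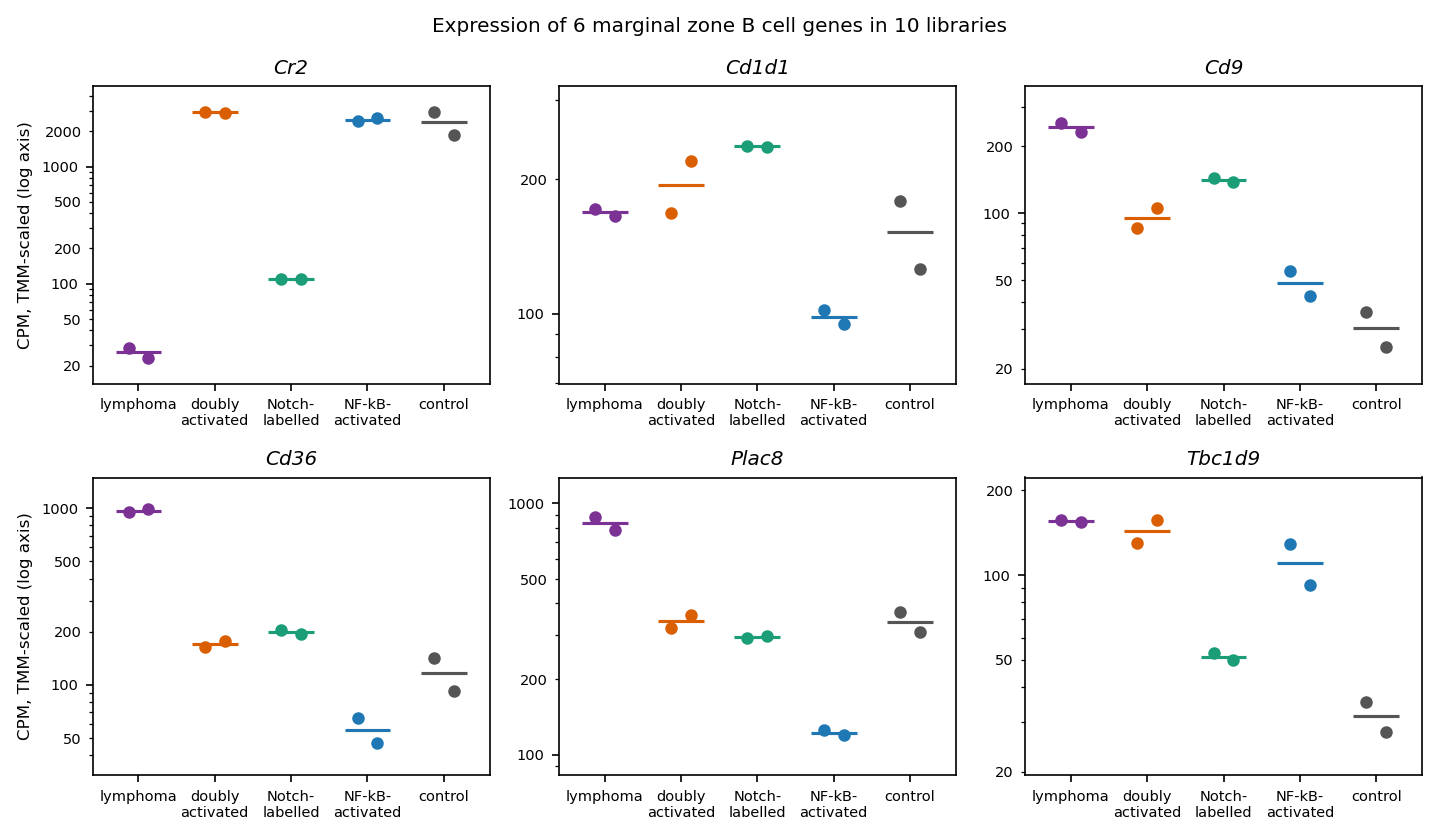
CPM (log axis) of each gene in 10 libraries; points are single libraries and bars the mean of 2. Cr2 lies between 1874 and 2940.3 CPM in doubly activated, NF-kB-activated and control libraries and at or below 110.8 CPM in Notch-labelled and lymphoma libraries, while Cd9, Cd36 and Plac8 are highest in lymphoma.

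Genes were called at an adjusted p below 0.05 in a single fit of all 10 libraries with edgeR's quasi-likelihood test, adjusted over all genes by Benjamini-Hochberg. The 4 comparisons with control share the 2 control libraries. Between NF-kB-activated and control cells 5 of the 6 genes passed, 2 higher and 3 lower, against 15.3% of all genes tested (8.72% higher and 6.6% lower). In Notch-labelled against control cells 5 of 6 passed, 4 higher and 1 lower, against 63.7% of all genes (34.2% higher and 29.5% lower). In doubly activated against control cells 2 of 6 passed, both higher, against 19.8% (10.5% higher and 9.3% lower). In lymphoma against control cells 5 of 6 passed, 4 higher and 1 lower, against 53.4% (27.8% higher and 25.6% lower).

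Against NF-kB-activated cells, which lack only the Notch2 allele, doubly activated cells had 4 of 6 genes higher and none lower, where 13.9% of all genes passed (6.62% higher and 7.28% lower). Doubly activated against Notch-labelled cells gave 2 higher and 1 lower of 6, against 64.2% of all genes (30.9% higher and 33.2% lower). Lymphoma against NF-kB-activated cells gave 5 higher and 1 lower, against 53.1% (26.6% higher and 26.4% lower), and lymphoma against Notch-labelled cells gave 4 higher and 2 lower, against 63.2% (31% higher and 32.2% lower). Notch-labelled against NF-kB-activated cells gave 4 higher and 2 lower, against 64.6% (33.5% higher and 31% lower). Lymphoma against doubly activated cells, which share the genotype, gave 3 higher and 1 lower of 6, against 51.3% (26.1% higher and 25.2% lower). The medians of the 6 log2 fold changes were -0.28 in NF-kB-activated, 0.67 in Notch-labelled, 0.45 in doubly activated and 1.80 in lymphoma against control cells, 0.97 in doubly activated against NF-kB-activated cells and 0.70 in lymphoma against doubly activated cells. The medians over all genes lay between 0.00 and 0.07 in these comparisons. Between 51.3% and 64.6% of all genes passed wherever lymphoma or Notch-labelled libraries were set against another group, where 3 to 6 of the 6 genes passed.

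**Figure D2:**
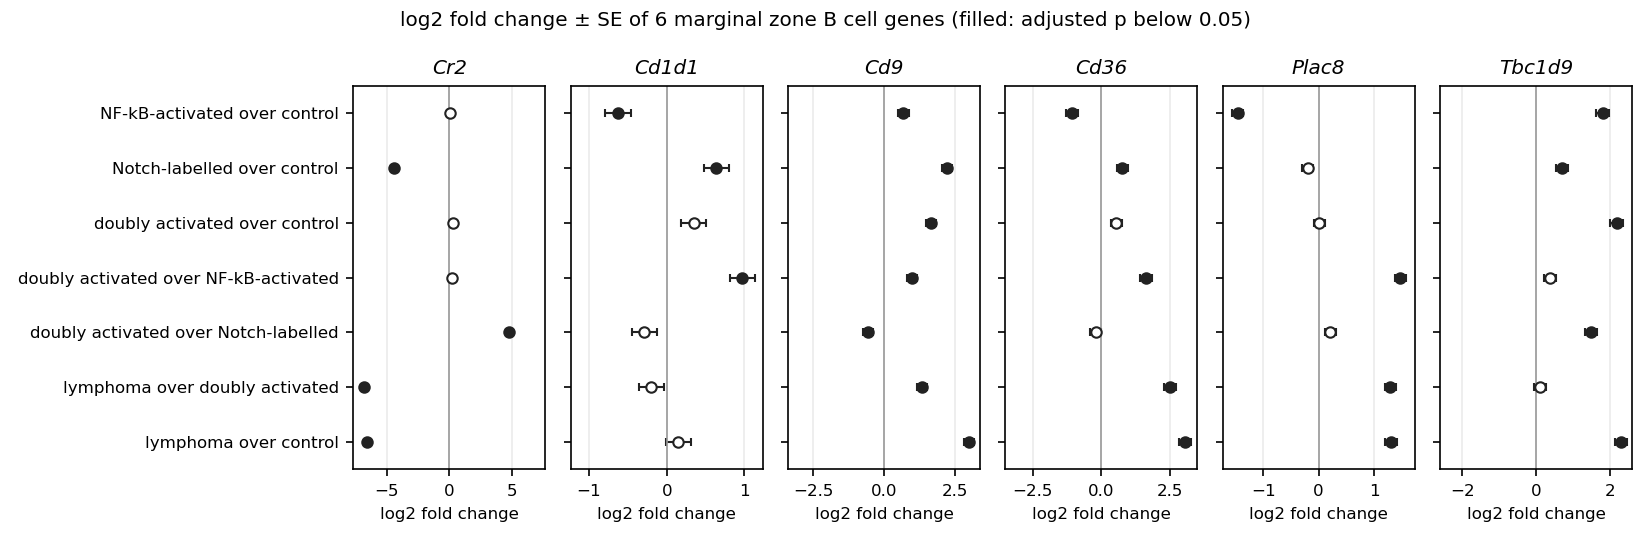
The log2 fold change (x axis) of each gene in 7 comparisons; bars are ± SE of the fit, filled points have an adjusted p below 0.05, and the x scale differs between panels. Cr2 lies at -4.43 in Notch-labelled against control cells and -6.81 in lymphoma against doubly activated cells, and Plac8 lies at -1.46 in NF-kB-activated against control cells and 1.47 in doubly activated against NF-kB-activated cells.

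Cr2 encodes the complement receptors that form part of the B cell co-receptor, with CD81, and hold complement-coated antigen. It had 28.5 and 23.3 CPM in lymphoma libraries, 2940.3 and 2869 CPM in doubly activated libraries, 110.8 and 109.9 CPM in Notch-labelled libraries, 2431 and 2609 CPM in NF-kB-activated libraries, and 2899 and 1874 CPM in control libraries. Lymphoma and Notch-labelled libraries were low and overlapped with no other group, while control libraries spanned the values of NF-kB-activated cells. Cr2 fell in Notch-labelled against control cells (log2 fold change -4.43 ± 0.20 SE, adjusted p = 7.92e-08), to a level 21.6-fold lower, beside the lower B cell identity markers of that group. It fell in lymphoma against doubly activated cells by 6.81 ± 0.23 on the log2 scale (adjusted p = 1.52e-08), to a level 112-fold lower. In that comparison 10 of the 14 B cell identity markers were lower too and 3 were higher. For Cr2, lymphoma cells were also below Notch-labelled cells (log2 -2.09 ± 0.19, adjusted p = 1.17e-05).

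In the order doubly activated, NF-kB-activated, control, Notch-labelled, lymphoma, no difference among the first 3 groups passed the test. Doubly activated libraries lay above NF-kB-activated libraries without overlap, at a log2 difference of 0.21 ± 0.17 (adjusted p = 0.492). The log2 difference in Cr2 was 0.28 ± 0.17 between doubly activated and control cells (adjusted p = 0.305) and 0.08 ± 0.17 between NF-kB-activated and control cells (adjusted p = 0.842). Both rest on the control libraries: without control library 1 they were 0.63 (adjusted p = 0.00141) and 0.43 (adjusted p = 0.0205), and without control library 2 they were -0.00 and -0.20. Control library 1 was the higher of its pair for all 6 genes, by 1.20 to 1.55 times. It also held the lower sum of 16 macrophage marker genes, 83.9 CPM against 311 CPM in control library 2. The part of that in the values of the 6 genes was not tested.

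The low Cr2 of cells labelled as marginal zone B cells goes against that label, since high CD21 is one of its defining features. Fcer2a, which encodes the follicular marker CD23, was also low there, at 10.1 ± 1.03 CPM in Notch-labelled cells and 600.3 ± 97.0 CPM in control cells, and low CD23 is the other usual feature of marginal zone cells. In lymphoma Fcer2a averaged 4.63 ± 0.123 CPM, against 436 ± 63.3 CPM in doubly activated cells.

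Cr2 lies on chromosome 1 at 195136811 to 195176716 on the minus strand of GRCm38, and 11 of its transcripts were in the files. The 2 of them that encode receptors of 1032 and 1026 codons held 56.0% and 67.2% of Cr2 counts in lymphoma, 72.1% and 69.3% in doubly activated, 62.6% and 66.8% in Notch-labelled, 74.5% and 77.6% in NF-kB-activated and 74.3% and 75.5% in control libraries. Cr2-204, annotated as a target of nonsense-mediated decay, held 32.5% and 19.3% in lymphoma and 22.6% and 19.9% in Notch-labelled libraries, against 8.36% to 14.7% in the other 3 groups. So the groups with little Cr2 RNA held a larger share of it as Cr2-204. In lymphoma that rests on 200 and 91.9 estimated counts of Cr2-204, among 616 and 477 for Cr2. Shares of overlapping transcripts also carry more error than gene totals. With 2 libraries against 2, an exact permutation test cannot go below p = 0.333 and none was run on shares. A longer coding transcript of 1408 codons, Cr2-212, was not among the 11 quantified, so CD35 and CD21 RNA could not be separated. Reads from it could only be given to other transcripts or lost, which also limits the shares above.

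The Cr2 promoter is shown because Notch acts through the DNA-binding protein RBPJ, whose binding sequences hold TGGGAA, and NF-kB sites share a loose motif of 3 G, 5 bases of any kind and 2 C. The window, from RefSeq on GRCm38.p6, is chr1:195176670-195176969 on the minus strand and runs from 250 bases before to 50 after the start of the gene. Capitals mark TGGGAA.
Cr2 promoter: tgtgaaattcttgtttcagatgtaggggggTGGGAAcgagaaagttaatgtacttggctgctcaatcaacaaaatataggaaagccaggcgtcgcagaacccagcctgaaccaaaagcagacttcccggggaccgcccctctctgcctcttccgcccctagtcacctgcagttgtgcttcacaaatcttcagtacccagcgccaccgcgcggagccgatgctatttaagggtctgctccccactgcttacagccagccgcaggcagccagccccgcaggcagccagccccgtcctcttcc
TGGGAA was searched on both strands and occurred 1 time here, while the loose NF-kB motif occurred 2 times on each strand, in matches that overlap each other. Among 32851 promoter windows of the same length, 25.6% held TGGGAA and 50.8% held the loose NF-kB motif. Of the 6 genes, 5 had an entry; Cd1d1 had none. TGGGAA occurred 1 time each in the windows of Cd9 and Cd36 and 0 times in that of Tbc1d9. A match is a string of letters and not a measured site.

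Cd1d1 encodes the molecule that presents lipid antigens to natural killer T cells. It had 172 and 166 CPM in lymphoma, 168 and 219 CPM in doubly activated, 237 and 236 CPM in Notch-labelled, 102 and 95.02 CPM in NF-kB-activated and 179 and 126 CPM in control libraries. NF-kB-activated libraries were the lowest and Notch-labelled libraries the highest, with the other 3 groups overlapping between them. With a log2 fold change of 0.97 ± 0.16 (adjusted p = 0.00477), Cd1d1 was higher in doubly activated than in NF-kB-activated cells, and it was higher in Notch-labelled than in control cells (log2 0.64 ± 0.16, adjusted p = 0.00657). From the top, neither Notch-labelled and doubly activated cells (adjusted p = 0.142), nor doubly activated and lymphoma cells (0.341), nor lymphoma and control cells (0.473) passed the test as neighbours. Without control library 1, lymphoma against control cells (log2 0.42, adjusted p = 0.0210) and doubly activated against control cells (log2 0.62, adjusted p = 0.00732) passed. Doubly activated against Notch-labelled cells passed in 5 alternatives (adjusted p from 0.0238 to 0.0422), among them library size alone, DESeq2 and without doubly activated library 2.

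NF-kB-activated cells were below control cells (log2 -0.63 ± 0.16, adjusted p = 0.0300), but that call was lost in 11 alternatives, among them when the 2 groups were fitted alone (adjusted p = 0.0666) and without control library 1 (adjusted p = 0.107). The call in Notch-labelled cells was lost when protein-coding transcripts only were summed (log2 0.39, adjusted p = 0.0641). The 3 transcripts with retained introns held 48.7% to 61.8% of Cd1d1 counts across the libraries. Cd1d2, a near-identical neighbour on chromosome 3 that is annotated as a polymorphic pseudogene, can share reads with Cd1d1. It averaged 1.49 ± 0.245 CPM in lymphoma, 7.13 ± 1.66 CPM in doubly activated, 39.5 ± 1.14 CPM in Notch-labelled, 2.15 ± 0.147 CPM in NF-kB-activated and 3.55 ± 0.716 CPM in control cells. Cd1d2 rose in Notch-labelled against control cells (log2 3.48 ± 0.22, adjusted p = 5.68e-08). With the counts of both genes summed, an alternative chosen after seeing the data, doubly activated cells were below Notch-labelled cells (log2 -0.46, adjusted p = 0.0300).

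Cd9 encodes a tetraspanin that associates with integrins and other tetraspanins in the membrane. It had 256 and 232 CPM in lymphoma, 86.0 and 105 CPM in doubly activated, 144 and 138 CPM in Notch-labelled, 55.0 and 42.3 CPM in NF-kB-activated and 35.9 and 25.02 CPM in control libraries. No 2 groups overlapped. Cd9 rose in doubly activated against control cells (log2 1.65 ± 0.18, adjusted p = 2.31e-04), in Notch-labelled against control cells (log2 2.21 ± 0.18, adjusted p = 4.71e-06) and in lymphoma against doubly activated cells (log2 1.35 ± 0.17, adjusted p = 1.42e-04). The order lymphoma, Notch-labelled, doubly activated, NF-kB-activated, control was called at every step.

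The last step was the least firm: NF-kB-activated against control cells gave a log2 fold change of 0.68 ± 0.18 (adjusted p = 0.0353), which was lost in 12 alternatives, among them without control library 2 (0.132) and without NF-kB-activated library 1 (0.196). Doubly activated cells were above NF-kB-activated cells (log2 0.97 ± 0.18, adjusted p = 0.00718), a call lost without doubly activated library 2 (0.0594), and below Notch-labelled cells (log2 -0.56 ± 0.17, adjusted p = 0.0171), a call lost without doubly activated library 1 (0.142), Notch-labelled library 1 (0.0722) or Notch-labelled library 2 (0.0508). The differences lay in the coding transcript Cd9-201 of 226 codons, which averaged 237 ± 17.6 CPM in lymphoma, 86.8 ± 14.2 CPM in doubly activated, 135 ± 4.34 CPM in Notch-labelled, 41.7 ± 7.17 CPM in NF-kB-activated and 22.8 ± 5.75 CPM in control cells. The transcript with a retained intron, Cd9-203, averaged 5.56 ± 1.42 CPM in lymphoma, 8.66 ± 0.409 CPM in doubly activated, 5.78 ± 0.714 CPM in Notch-labelled, 6.95 ± 1.83 CPM in NF-kB-activated and 7.69 ± 1.91 CPM in control cells. Its share of Cd9 counts was 1.78% and 2.83% in lymphoma and 25.2% and 25.3% in control libraries. A pair of predicted genes on the opposite strand overlap Cd9, and the labels do not state whether counting used strand. Platelets also carry much Cd9 and Cd36, and the summed CPM of 13 platelet markers was 27.3 to 29.9 in lymphoma, 84.5 to 102 in doubly activated, 24.8 to 25.4 in Notch-labelled, 141 to 158 in NF-kB-activated and 39.2 to 51.8 in control libraries. Most of that sum was Itgb3, an integrin subunit that averaged 140.1 CPM in NF-kB-activated and 37.3 CPM in control cells and was called higher (adjusted p = 1.75e-05). The defining genes Pf4 and Ppbp were at or below 0.157 and 0.681 CPM in every library. Of 9 tested stromal marker genes, 8 were higher and 0 lower in Notch-labelled than in control cells (all genes 34.2% and 29.5%). The part of the platelet markers and of the stromal genes in the Cd9 and Cd36 values was not tested.

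Cd36 encodes a receptor that takes up fatty acids and oxidised lipoprotein. It had 946 and 986 CPM in lymphoma, 165 and 178 CPM in doubly activated, 203 and 193 CPM in Notch-labelled, 64.6 and 46.7 CPM in NF-kB-activated and 142 and 92.2 CPM in control libraries. Lymphoma libraries stood far above the rest and NF-kB-activated libraries below. Cd36 rose 5.64-fold in lymphoma against doubly activated cells (log2 2.50 ± 0.21, adjusted p = 2.89e-05) and 3.08-fold in doubly activated against NF-kB-activated cells (log2 1.62 ± 0.21, adjusted p = 0.00262). It was lower in NF-kB-activated than in control cells (log2 -1.07 ± 0.21, adjusted p = 0.0122) and higher in Notch-labelled than in control cells (log2 0.76 ± 0.21, adjusted p = 0.0125). The first of these calls was lost when the 2 groups were fitted alone (adjusted p = 0.103), and the second without Notch-labelled library 1 (adjusted p = 0.0572).

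Doubly activated cells did not pass against control cells (log2 0.55 ± 0.21, adjusted p = 0.110), except without control library 1 (0.89, adjusted p = 0.00266) and with limma-voom (adjusted p = 0.0397), nor against Notch-labelled cells (log2 -0.21 ± 0.20, adjusted p = 0.399), except with these 2 groups fitted alone (adjusted p = 0.0245). Macrophages are another source of Cd36. The summed CPM of 16 macrophage markers was 206 to 207 in lymphoma, 60.5 to 87.9 in doubly activated, 92.8 to 96.0 in Notch-labelled, 211 to 298 in NF-kB-activated and 83.9 to 311 in control libraries. Of the 16 markers, 5 were higher and 1 lower in lymphoma than in doubly activated cells (all genes 26.1% and 25.2%). Against control cells lymphoma had 2 higher and 10 lower (median log2 fold change -2.34, all genes 27.8% and 25.6%). Against NF-kB-activated cells it had 2 higher and 12 lower (median -2.01, all genes 26.6% and 26.4%). In NF-kB-activated against control cells 1 was higher and 0 lower (all genes 8.72% and 6.6%). The part of the macrophage markers in the Cd36 values was not tested.

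Transcripts of Cd36 begin at 3 places on the minus strand of chromosome 5 and encode the same 472 codons. Cd36-203 starts at 17888747, Cd36-204 and Cd36-202 start 38955 and 39018 bases downstream of it, and Cd36-201 starts 53051 bases downstream. The distal start of Cd36-203 held 70.8% and 71.2% of Cd36 counts in Notch-labelled libraries, against 4.88% to 28.6% in the other 8. The middle starts held 62.6% and 51.8% in lymphoma, 3.92% and 0.0306% in Notch-labelled, and 15.4% to 40.4% in the other 6 libraries. Cd36-201 held 50.1% to 62.6% in doubly activated, NF-kB-activated and control libraries. In counts, the middle starts averaged 552 ± 58.2 CPM in lymphoma and 49.3 ± 7.34 CPM in doubly activated cells, and the start of Cd36-201 averaged 316 ± 39.0 CPM in lymphoma and 97.0 ± 20.6 CPM in doubly activated cells. Lymphoma libraries were above doubly activated libraries at both, with the wider gap at the middle starts. Control libraries differed on the distal start, at 28.6% and 4.88%. Transcripts that share most of their bases are told apart by few reads, so these shares carry more error than the gene totals. The part of the stromal genes in the distal share of Notch-labelled libraries was not tested.

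The RefSeq promoter entry of Cd36 lies near the start of Cd36-201, which is not inside the window, at chr5:17835847-17836146 on the minus strand of GRCm38.p6, and is shown because that start held 50.1% or more of Cd36 counts in each of the 6 precursor libraries. Capitals mark TGGGAA.
Cd36 promoter: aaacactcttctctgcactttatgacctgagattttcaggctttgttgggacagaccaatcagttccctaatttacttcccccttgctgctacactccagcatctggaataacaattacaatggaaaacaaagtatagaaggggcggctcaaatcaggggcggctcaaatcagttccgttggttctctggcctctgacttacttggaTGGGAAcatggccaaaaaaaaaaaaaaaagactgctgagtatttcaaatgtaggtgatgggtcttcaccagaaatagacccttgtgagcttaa
The loose NF-kB motif occurred 1 time in it.

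Plac8 was the most abundant of the 6 genes per length in lymphoma. It had 882 and 783 CPM in lymphoma, 320.2 and 359 CPM in doubly activated, 291 and 296 CPM in Notch-labelled, 126 and 119 CPM in NF-kB-activated and 368 and 307 CPM in control libraries. Lymphoma libraries were highest, NF-kB-activated libraries lowest, and the other 3 groups lay close together, with doubly activated and control libraries overlapping. Plac8 fell in NF-kB-activated against control cells (log2 -1.46 ± 0.10, adjusted p = 1.50e-06) and rose in doubly activated against NF-kB-activated cells (log2 1.47 ± 0.10, adjusted p = 6.25e-06). Both calls held in the 24 alternatives tried. Doubly activated and control cells differed by 0.01 ± 0.10 (adjusted p = 0.983). Lymphoma stood above doubly activated cells (log2 1.29 ± 0.10, adjusted p = 4.67e-07). Notch-labelled against control cells gave -0.20 ± 0.10 (adjusted p = 0.0956), which passed only without control library 2 (adjusted p = 0.00851). Neutrophils also express Plac8. The summed CPM of 14 neutrophil markers was 165 to 533 in NF-kB-activated, 92.3 to 95.8 in Notch-labelled and 24.7 to 26.1 in lymphoma libraries. It was 10.9 to 17.8 in doubly activated and 10.8 to 34.7 in control libraries. Of the 14 markers, 8 were higher and 0 lower in NF-kB-activated than in control cells (all genes 8.72% and 6.6%). Against NF-kB-activated cells, doubly activated cells had 0 higher and 12 lower (all genes 6.62% and 7.28%). The part of the neutrophil markers in the Plac8 values was not tested.

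Plac8 has an upstream and a downstream start on the minus strand of chromosome 5. Plac8-201 begins at 100572245, and Plac8-203 and Plac8-202 begin 8822 and 9387 bases downstream of it. These 3 encode the same 112 codons. Values of the upstream start also include Plac8-204, a transcript with a retained intron and no coding sequence. As for Cd36, shares of overlapping transcripts carry more error than the gene totals. The downstream starts held 39.5% and 31.4% of Plac8 counts in Notch-labelled libraries, against 4.203% and 4.70% in lymphoma, 6.19% and 7.002% in doubly activated, 12.1% and 12.4% in NF-kB-activated and 6.47% and 4.64% in control libraries. In counts, they averaged 104 ± 15.4 CPM in Notch-labelled cells and 19.0 ± 6.80 CPM in control cells. The upstream start averaged 190 ± 19.0 CPM in Notch-labelled and 318 ± 36.9 CPM in control cells, so a gene total that did not pass the test held 2 differences of opposite sign. No 2 libraries of these groups overlapped at either start, and no test was run. In lymphoma the upstream start rose to 796 ± 69.4 CPM, against 317 ± 23.9 CPM in doubly activated cells.

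Both promoter windows are shown because the 2 starts differed in use. They come from RefSeq on GRCm38.p6, at chr5:100572156-100572455 for the upstream start and chr5:100563047-100563346 for the downstream start, both on the minus strand. The second is a separate RefSeq start, and neither Plac8-203 nor Plac8-202 begins inside its window. Capitals mark TGGGAA as it reads on the opposite strand.
Plac8 upstream promoter: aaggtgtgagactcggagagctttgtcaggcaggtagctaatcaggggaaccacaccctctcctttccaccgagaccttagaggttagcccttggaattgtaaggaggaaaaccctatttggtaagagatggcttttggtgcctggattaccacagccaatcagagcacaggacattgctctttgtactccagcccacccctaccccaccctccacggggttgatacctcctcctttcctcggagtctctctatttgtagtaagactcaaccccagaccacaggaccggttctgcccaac
Plac8 downstream promoter: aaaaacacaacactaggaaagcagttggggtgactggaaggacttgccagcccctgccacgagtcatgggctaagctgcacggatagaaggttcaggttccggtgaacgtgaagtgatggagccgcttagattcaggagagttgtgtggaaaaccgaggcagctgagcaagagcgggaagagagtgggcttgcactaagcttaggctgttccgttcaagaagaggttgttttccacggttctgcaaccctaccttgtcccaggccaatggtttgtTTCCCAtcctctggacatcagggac
TGGGAA occurred 0 times in the upstream window and 1 time, on the opposite strand, in the downstream window. The loose NF-kB motif occurred 1 time in the upstream window, on the opposite strand, and 0 times in the downstream window.

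**Figure D3:**
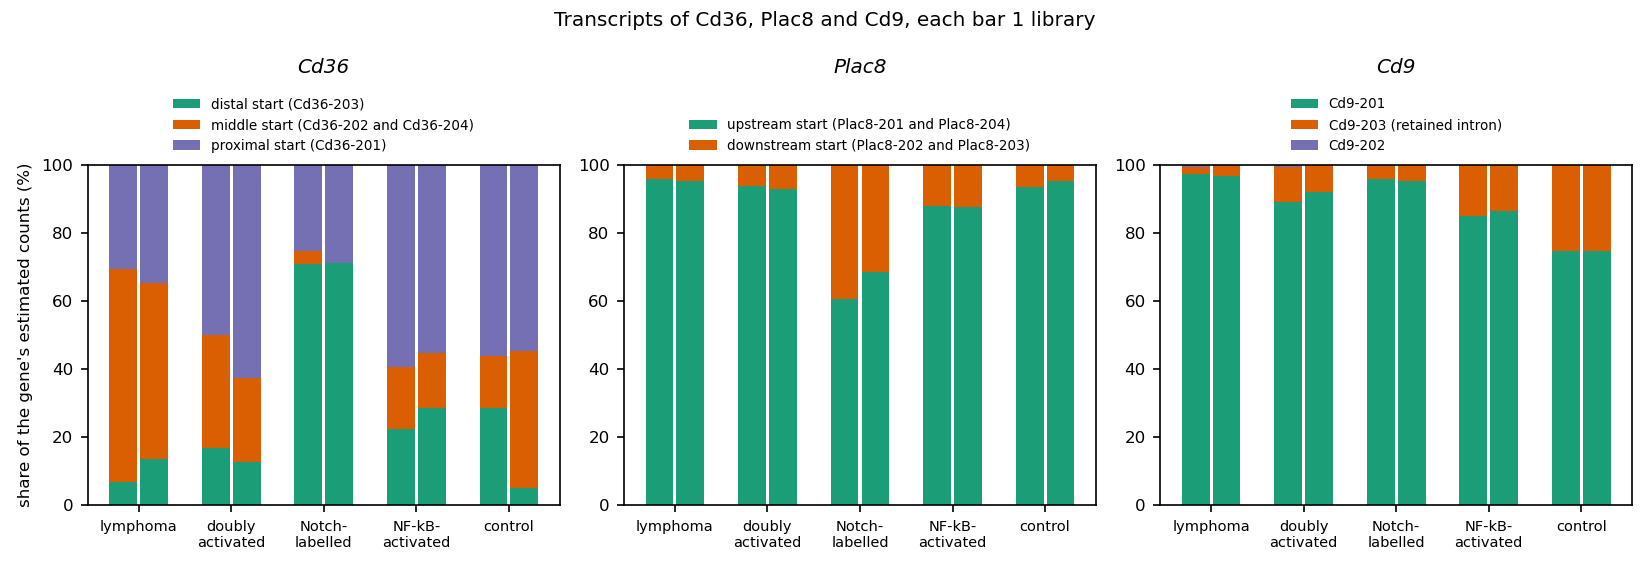
Share of estimated counts (y axis, percent) held by the transcripts of Cd36, Plac8 and Cd9; each bar is 1 library and each group has 2. Notch-labelled libraries stand apart, with 70.8% and 71.2% of Cd36 at the distal start and 39.5% and 31.4% of Plac8 at the downstream starts, and Cd9-203 holds at most 2.83% of Cd9 in lymphoma, against 25.2% and 25.3% in control libraries.

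Tbc1d9 had 156 and 154 CPM in lymphoma, 130.5 and 157 CPM in doubly activated, 52.8 and 49.8 CPM in Notch-labelled, 129 and 91.9 CPM in NF-kB-activated and 35.4 and 27.6 CPM in control libraries. All 3 groups with the NIK allele were above Notch-labelled cells, and Notch-labelled cells were above control cells, with no overlap at either step. Tbc1d9 rose 3.51-fold in NF-kB-activated against control cells (log2 1.81 ± 0.17, adjusted p = 9.19e-05) and 4.56-fold in doubly activated against control cells (log2 2.19 ± 0.17, adjusted p = 2.12e-05). Notch-labelled against control cells gave a log2 fold change of 0.71 ± 0.17 (adjusted p = 0.00499), lost without control library 2 (adjusted p = 0.0636). Among the groups with the NIK allele, lymphoma against doubly activated cells (0.11 ± 0.16, adjusted p = 0.596) and doubly activated against NF-kB-activated cells (0.38 ± 0.16, adjusted p = 0.157) did not pass, though the second passed without NF-kB-activated library 1 (adjusted p = 0.0293). Lymphoma cells were above NF-kB-activated cells (log2 0.49 ± 0.16, adjusted p = 0.0269), a call lost without lymphoma library 1 (0.105), lymphoma library 2 (0.0874) or NF-kB-activated library 2 (0.182). Most of the counts, 73.1% to 93.6% in each library, were given to Tbc1d9-202, which encodes 1264 codons. Tbc1d9 lies on the plus strand of chromosome 8 at 83165352 to 83272934 and overlaps 2 predicted genes.

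The effect of the Notch2 allele with the NIK allele present (doubly activated minus NF-kB-activated) was set against Notch-labelled minus control cells, as an interaction term. The term was called for 4 of the 6 genes, 3 higher and 1 lower, against 49.5% of all genes (23.9% higher and 25.6% lower). It was 4.64 ± 0.26 for Cr2 (adjusted p = 8.87e-07), where the log2 changes set against each other were 0.21 and -4.43. For Plac8 it was 1.67 ± 0.14 (adjusted p = 1.78e-06), from changes of 1.47 and -0.20. For Cd9 it was -1.24 ± 0.25 (adjusted p = 0.00268), from 0.97 and 2.21. Cd36 gave 0.86 ± 0.29 (adjusted p = 0.0408), from 1.62 and 0.76, a call lost in 12 of 23 alternatives. Cd1d1 gave 0.34 ± 0.23 (adjusted p = 0.253) and Tbc1d9 -0.33 ± 0.23 (adjusted p = 0.280). These last values passed without control library 2 for Cd1d1 (log2 0.60, adjusted p = 0.0121) and without NF-kB-activated library 2 for Tbc1d9 (log2 -0.52, adjusted p = 0.0472). The term also holds the difference in labelled cell type, the stromal genes and the dominant Ighv segment of the Notch-labelled libraries, from which the allele cannot be told apart.

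The genes whose log2(CPM + 1) pattern over the 10 libraries was most like each marker were found among 10877 genes, by Pearson correlation. The libraries are 5 groups of 2, so r describes mainly the group levels. Nearest to Cr2 were Fcrl1 (r = 0.996), Ipcef1 (0.996) and Lrrfip1 (0.994). Cd1d1 was followed by Uqcc1 (0.963), Sfr1 (0.944) and Nrde2 (0.940), and Cd9 by Etv6 (0.981), Mapk6 (0.978) and Mzt2 (0.977). Fam53b (0.992), Naca (0.986) and Uqcrfs1 (0.985) came nearest to Cd36, and Nsdhl (0.988), Tex30 (0.969) and Pde1b (0.968) to Plac8. For Tbc1d9 they were Spns3 (0.982), Apobec1 (0.981) and Myo1h (0.975). Etv6, a transcriptional repressor, averaged 234 CPM in lymphoma, 87.1 CPM in doubly activated and 126 CPM in Notch-labelled cells. It averaged 58.0 CPM in NF-kB-activated and 42.6 CPM in control cells. This is the order of Cd9, but Etv6 was chosen for its likeness to Cd9, so the match adds no separate support.

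Other genes known from marginal zone B cells did not move as one group. Of 17 such genes, 10 were higher and 1 lower in doubly activated than in control cells, with a median log2 fold change of 0.82. Over all genes 10.5% were higher and 9.3% lower there. In NF-kB-activated against control cells 6 were higher and 5 lower (median 0.41), and in Notch-labelled against control cells 8 were higher and 4 lower (median 0.29). All-gene shares were 8.72% higher and 6.6% lower in the first, and 34.2% and 29.5% in the second. Lymphoma against doubly activated cells gave 6 higher and 9 lower (median -0.69), against 26.1% higher and 25.2% lower of all genes. Ackr3, an atypical chemokine receptor, rose to 284.5 ± 55.7 CPM in doubly activated cells, against 8.08 ± 2.05 CPM in control cells (log2 5.14 ± 0.19, adjusted p = 9.67e-08). Its level was 216.9 ± 18.2 CPM in NF-kB-activated and 149.6 ± 9.78 CPM in Notch-labelled cells. S1pr3, a sphingosine phosphate receptor that helps to hold cells in the marginal zone, was at 247 ± 13.4 CPM in doubly activated cells, against 82.5 ± 11.97 CPM with NF-kB activation alone (log2 1.58 ± 0.13, adjusted p = 3.90e-05). In lymphoma it fell to 62.8 ± 6.77 CPM (log2 -1.98 ± 0.14 against doubly activated cells, adjusted p = 3.30e-07). Mzb1, a chaperone of antibody-secreting and marginal zone cells, is itself among the plasma cell markers counted above. Its level was 1017 ± 69.4 CPM in lymphoma and 279 ± 6.68 CPM in doubly activated cells (log2 1.87 ± 0.09, adjusted p = 1.10e-08).

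Genes of follicular B cells, the alternative fate, were counted in the same way. All 11 were lower in Notch-labelled than in control cells (median log2 fold change -2.74), against 29.5% of all genes, and 9 of 11 were lower and 2 higher in lymphoma than in doubly activated cells (median -1.50), against 25.2% of all genes lower. In doubly activated against control cells 6 were lower and 2 higher (median -0.52), against 9.3% lower and 10.5% higher of all genes. Fcer2a fell by 6.55 ± 0.20 on the log2 scale in lymphoma against doubly activated cells (adjusted p = 2.87e-09). In lymphoma and Notch-labelled cells the low Cr2 therefore stood beside low follicular genes.

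**Figure D4:**
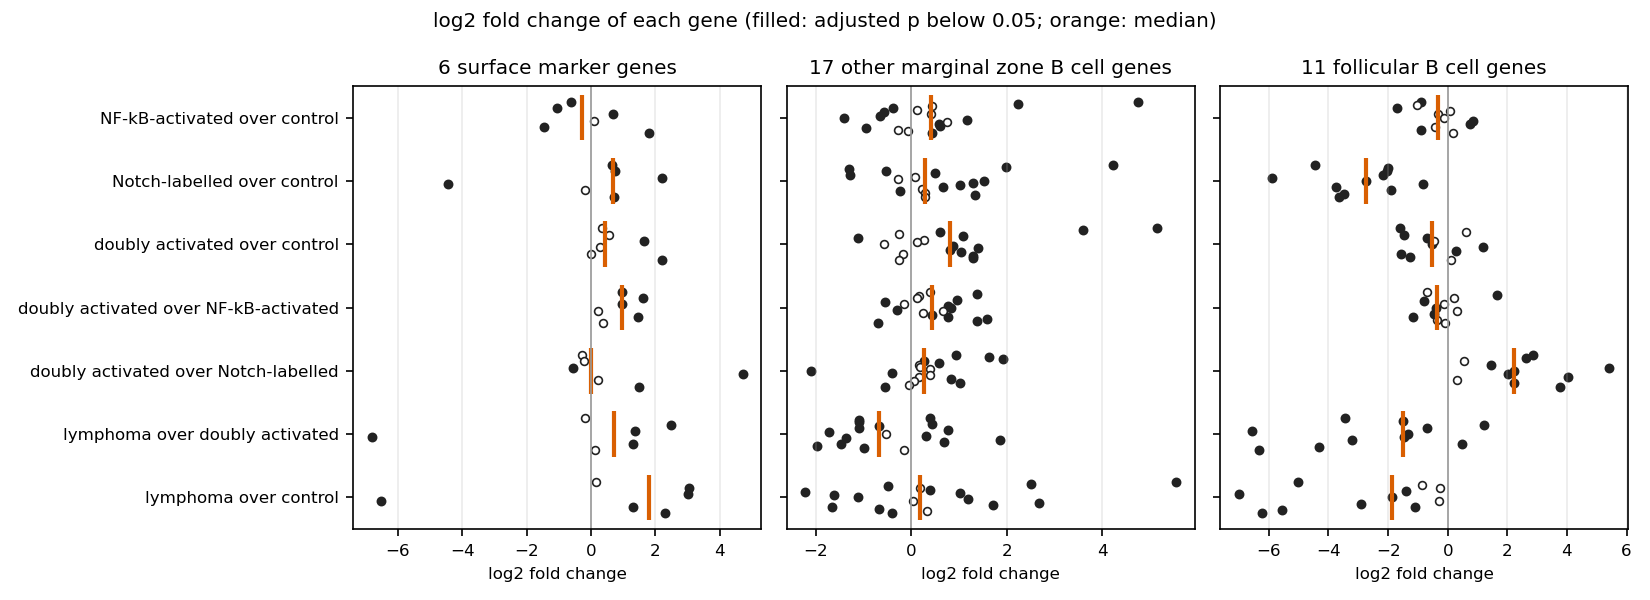
The log2 fold change (x axis) of every gene of 3 lists in 7 comparisons; filled points have an adjusted p below 0.05 and orange bars are medians. In Notch-labelled against control cells the follicular genes are all lower (median -2.74) while the other marginal zone genes spread to both sides (median 0.29).

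Partners of the markers were counted from lists of their pathways. Of 15 tested genes of the complement receptors and the B cell co-receptor, 7 were higher and 5 lower in Notch-labelled than in control cells, and 2 were higher and 2 lower in doubly activated than in control cells. Over all genes 63.7% passed in the first comparison and 19.8% in the second. Cd81 rose to 302 ± 27.1 CPM in doubly activated cells, against 172 ± 14.1 CPM in control cells (log2 0.82 ± 0.09, adjusted p = 4.67e-05), and fell to 91.9 ± 6.59 CPM in lymphoma. So Cr2 and Cd81 were both low in lymphoma, while Cd59a, an inhibitor of the complement pore, was at 84.8 ± 1.45 CPM in lymphoma and 2.15 ± 0.350 CPM in control cells (log2 5.30 ± 0.15, adjusted p = 1.13e-10).

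Of 17 genes that load and recognise CD1d or process its lipids, 12 were higher and 3 lower in lymphoma than in control cells (median log2 fold change 0.43), and 9 were higher and 5 lower in Notch-labelled than in control cells (median 0.34). All-gene shares were 27.8% higher and 25.6% lower in the first, and 34.2% and 29.5% in the second. Ctsl, a lysosomal protease, was at 114 ± 19.4 CPM in Notch-labelled and 2.85 ± 0.410 CPM in control cells (log2 5.32 ± 0.17, adjusted p = 4.86e-10), beside the stromal genes of that group. Slamf1 was at 1.21 ± 0.323 CPM in lymphoma and 20.6 ± 0.432 CPM in doubly activated cells (log2 -4.08 ± 0.25, adjusted p = 4.83e-08). Of 16 other tetraspanins and their partners, 9 were higher and 7 lower in Notch-labelled than in control cells, and 2 were higher and 6 lower in lymphoma than in doubly activated cells, where Cd9 was higher. Over all genes 63.7% passed in the first comparison and 51.3% in the second. Tspan32 fell to 35.6 ± 2.25 CPM in lymphoma, against 129 ± 1.85 CPM in doubly activated cells (log2 -1.86 ± 0.08, adjusted p = 2.70e-09).

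Of 24 tested genes of lipid uptake and fatty acid use, 7 were higher and 9 lower in lymphoma than in doubly activated cells (median log2 fold change -0.00), where Cd36 rose. Between doubly activated and NF-kB-activated cells 0 were higher and 2 lower. The shares of all genes that passed were 51.3% in the first comparison and 13.9% in the second. Fabp5, a fatty acid carrier, was at 11.1 ± 1.88 CPM in NF-kB-activated and 1.49 ± 0.497 CPM in control cells (log2 2.90 ± 0.27, adjusted p = 1.77e-05), where Cd36 fell. Fyn, a kinase downstream of CD36, was at 1.82 ± 0.810 CPM in lymphoma and 91.9 ± 1.41 CPM in doubly activated cells (log2 -5.66 ± 0.19, adjusted p = 8.39e-10). Of 28 other TBC domain genes, 2 were higher and 2 lower in NF-kB-activated than in control cells, and 2 were higher and 1 lower in doubly activated than in control cells, where Tbc1d9 rose in both. Among all genes 15.3% passed in the first comparison and 19.8% in the second. Tbc1d5 was at 108 ± 7.79 CPM in doubly activated and 72.0 ± 0.808 CPM in control cells (log2 0.58 ± 0.08, adjusted p = 2.55e-04).

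Of 26 regulators of marginal zone fate, 9 were higher and 17 lower in lymphoma than in doubly activated cells (median log2 fold change -0.62), and 4 were higher and 6 lower in doubly activated than in control cells (median 0.08). All-gene shares were 26.1% higher and 25.2% lower in the first, and 10.5% and 9.3% in the second. Tnfrsf13c, the BAFF receptor, was at 107 ± 11.3 CPM in doubly activated and 425 ± 26.1 CPM in control cells (log2 -1.99 ± 0.09, adjusted p = 4.44e-08). Nfkb2, which encodes the precursor of the alternative NF-kB subunit, was at 668 ± 20.8 CPM in doubly activated and 322 ± 47.2 CPM in control cells (log2 1.05 ± 0.09, adjusted p = 8.60e-06). Notch2 itself was at 167 ± 16.8 CPM in lymphoma and 728 ± 35.7 CPM in doubly activated cells (log2 -2.13 ± 0.09, adjusted p = 1.98e-09).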

How the data were processed

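Gene expression was measured by RNA sequencing in 10 libraries. The authors deposited estimated counts and TPM per transcript, per the file headers, made with kallisto 0.44.0 on build mm10 per the submitters' processing notes, which state no transcript release. Of 88198 transcripts, 86031 matched GENCODE M21 (GRCm38) by identifier; the 2167 unmatched ones held 1.09% to 1.38% of counts per library. Estimated counts and TPM were summed per gene, and counts were rounded. Depth was 16380889 to 23102081 estimated counts.

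Genes passing edgeR's expression filter (minimum count 10, minimum total 15) were fitted together with edgeR 4.0.16 in R 4.3.3 (robust quasi-likelihood fit, TMM scaling, 5 residual degrees of freedom), with 11 comparisons and Benjamini-Hochberg adjustment over 15583 genes at 0.05. Alternatives used limma 3.58.1, DESeq2 1.42.0, other scalings, filters, transcript sets and libraries. The 6 genes and all lists were chosen with earlier results of these data known. Other genes were named by a rule: the smallest p-values within each list and comparison, and the 3 nearest patterns for each gene. The fit was tested on simulated data. Replicate numbers did not pair libraries, as given among the limits. Some named genes are not reported here.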

Additional observations from a re-analysis of the deposited data

Results flagged for a closer look

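For 4 of the 6 genes the interaction term was called in the fit of all libraries (edgeR, 2 libraries per group). The term sets doubly activated minus NF-kB-activated cells against Notch-labelled minus control cells. On the log2 scale the term was 4.64 for Cr2, 1.67 for Plac8, -1.24 for Cd9 and 0.86 for Cd36, whose call was lost in 12 of 23 alternatives. Over all genes, 49.5% were called for this term. The Notch-labelled libraries in this term also differed from the others in labelled cell type, stromal genes and antibody segments. An effect of the Notch2 allele cannot be told apart from these. No group had enough libraries to look for a single library apart from the others.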

How the results depend on the processing

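Each group had 2 libraries, so 1 library can decide a call. Of the values of the 6 genes over all alternatives, 1445 kept their direction and side of the threshold, 62 lost significance, 22 gained it and 12 changed direction. The direction changed only where the difference had not passed the test. Leaving out 1 library in turn put Cr2 between -0.20 and 0.43 in NF-kB-activated and between -0.0014 and 0.63 in doubly activated against control cells, Cd1d1 between -0.090 and 0.42 in lymphoma against control and between -0.38 and 0.0062 in lymphoma against doubly activated cells, Plac8 between -0.12 and 0.15 in doubly activated against control cells, and Tbc1d9 between -0.020 and 0.25 in lymphoma against doubly activated cells. Protein-coding transcripts alone put Cd1d1 at -0.086 in lymphoma against control cells. Plac8 in doubly activated against control cells moved to -0.011 with RLE factors and with DESeq2, -0.061 with library size alone and -0.0033 with effective lengths. The cause was not tested.

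A minimum fold change of 1.5 left 640 of 2388 genes in NF-kB-activated against control cells, 5955 of 9922 in Notch-labelled, 815 of 3090 in doubly activated and 4159 of 8328 in lymphoma against control cells, 374 of 2165 in doubly activated against NF-kB-activated cells, 5980 of 10002 in doubly activated against Notch-labelled cells, 3809 of 7988 in lymphoma against doubly activated cells, 3991 of 8267 in lymphoma against NF-kB-activated cells, 5572 of 9846 in lymphoma against Notch-labelled cells, 6128 of 10060 in Notch-labelled against NF-kB-activated cells and 4616 of 7717 for the interaction. Fitting the compared groups alone gave 1984 in doubly activated against control cells, and effective lengths gave 1390 in doubly activated against NF-kB-activated cells.

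Leaving out 1 library gave 1435 to 2291 genes in NF-kB-activated, 8353 to 10014 in Notch-labelled, 1624 to 3081 in doubly activated and 7036 to 8242 in lymphoma against control cells. It gave 725 to 2800 in doubly activated against NF-kB-activated cells, 8341 to 10462 in doubly activated against Notch-labelled cells and 6473 to 8410 in lymphoma against doubly activated cells. It gave 6573 to 8727 in lymphoma against NF-kB-activated cells, 8020 to 10426 in lymphoma against Notch-labelled cells, 8510 to 10584 in Notch-labelled against NF-kB-activated cells and 6447 to 7821 for the interaction.

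Scaling by library size alone moved the share of calls that were higher to 41.7% (53.1% with TMM) in doubly activated against control cells, 34.0% (47.6%) in doubly activated against NF-kB-activated cells, 38.8% (49.1%) in lymphoma against Notch-labelled cells and 38.1% (48.3%) for the interaction, and put the median of all genes at 0.18 in Notch-labelled against control cells. Libraries with the same number did not deviate together (r from -0.11 to 0.09 over 10 pairs of groups and 10376 genes), and a replicate block gave 2100 calls in NF-kB-activated, 9621 in Notch-labelled, 2794 in doubly activated and 7995 in lymphoma against control cells.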
